A study of Nothobranchius furzeri with 9 samples.

Results

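The matrix metalloproteinases (MMPs), their tissue inhibitors (TIMPs), the ADAM metalloproteases, the ADAMTS proteases and the ADAMTS-like proteins were examined as 1 gene family in muscle of the turquoise killifish, *Nothobranchius furzeri*. Members were all entries of the expression table whose gene name begins with MMP, TIMP or ADAM and a number, or with ADAMTS, and 86 of 39396 entries met this rule. The 9 libraries came from whole skeletal muscle of male fish of the wild-derived strain MZM-04/10: 3 young fish of 5 weeks, 3 adult fish of 20 weeks and 3 old fish of 35 weeks. No genetic change or treatment was applied, and all fish were killed at the same hour after fasting. Different fish were sampled at each age, so the ages are groups of animals and not repeated measures.

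MMPs are zinc-dependent enzymes that cut collagens, other matrix proteins and cell surface proteins. They are made as inactive precursors, activated by furin, plasmin or other MMPs, and blocked by TIMPs that bind the active site. ADAMs sit in the cell membrane and release the outer parts of growth factors, cytokine receptors and Notch ligands. ADAMTS enzymes are secreted and cut proteoglycans such as aggrecan and versican or trim the ends of procollagens, while ADAMTS-like proteins lack the protease domain and bind fibrillin microfibrils. In muscle these families take part in the turnover of the matrix around fibres, in growth and in repair.

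The values are read numbers that the authors divided by a size factor of each library and then rounded, called normalized counts here. They are not scaled to gene length, so levels were compared between ages and not between genes. The muscle label held: marker genes of muscle fibres, of which 12 of 13 entries were tested, summed to 950112 to 1101334 in the young, 685196 to 1024954 in the adult and 1004029 to 1324711 in the old libraries. As estimated from the spacing of the values, young libraries held between 11.72 and 12.92 M reads on genes, adult libraries between 11.76 and 14.23 M and old libraries between 7.96 and 12.71 M, and 3 reads stand for 2.4 to 4.33 normalized counts. The members held 0.0609 to 0.0664% of the column total in young, 0.0567 to 0.0779% in adult and 0.0448 to 0.0543% in old libraries. In bulk muscle, fewer cells of a type and less RNA per cell cannot be told apart.

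The 3 comparisons ask how expression differs between growth and maturity, between growth and old age, and between maturity and old age. A mean of 5 or more over all 9 libraries was required, so 69 members entered the test and 17 did not. A member was called when its limma p, adjusted by Benjamini-Hochberg over all 17454 entries tested, did not exceed 0.05 and its log2 fold change on the log2(value + 1) scale was 1 or more in size. This scale understates the change of genes near 0. Each ± behind a log2 fold change is its standard error.

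In adult against young muscle 13 members (18.8%) were called, 9 higher (13.0%) and 4 lower (5.80%). Of all entries tested, 22.1% were called, 10.7% higher and 11.4% lower, so the members' share was near the background. In old against young muscle 15 members (21.7%) were called, 3 higher (4.35%) and 12 lower (17.4%), where 17.7% of all entries were called, 7.91% higher and 9.84% lower. Without young replicate 3 this count was 7 (10.1%), where 13.0% of all entries were called, so the members' share was then below the background. In old against adult muscle 0 members were called higher and 1, ADAM19B, lower (1.45%), where 2.09% of all entries were called, 0.825% higher and 1.26% lower. At an unadjusted limma p under 0.05 the members in this comparison numbered 1 higher (1.45%) and 18 lower (26.1%), against 10% and 10.3% of all entries. This background was 21.1% higher and 22.5% lower in adult against young and 19.3% higher and 21.1% lower in old against young muscle. A total of 23 members (33.3%) passed in at least 1 comparison, against 28.5% of all entries.

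**Figure D1:**
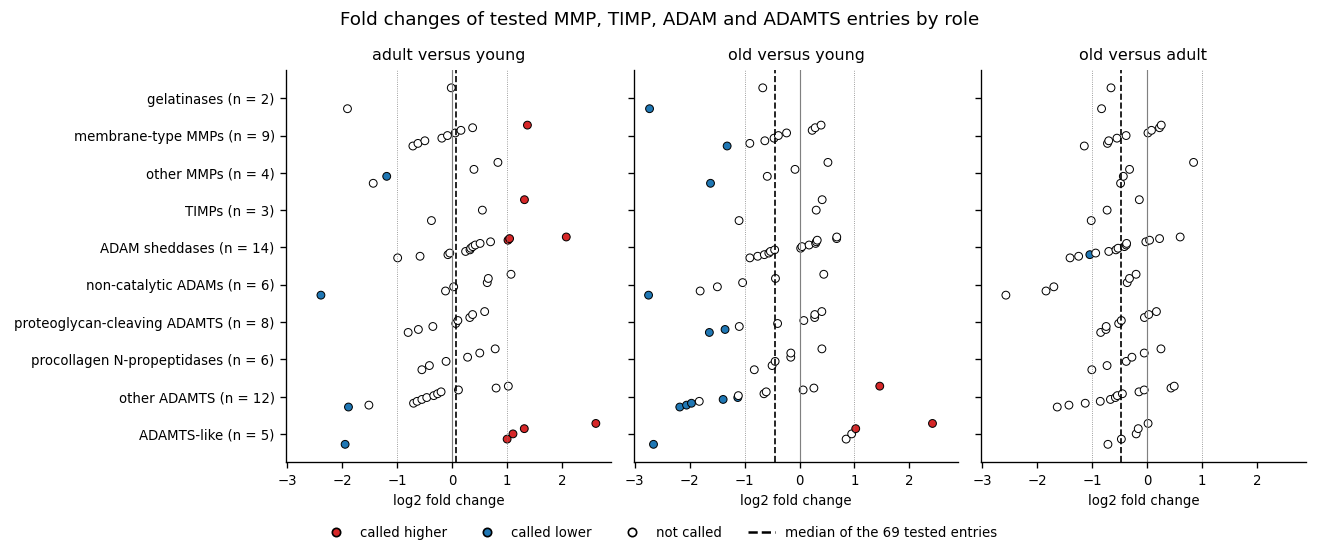
Log2 fold changes (x axis) of the 69 tested members in each of the 3 comparisons, arranged by role group (y axis), with members called higher in red, members called lower in blue and the others as open circles. The dashed line is the members' median, which lies at 0.07 in adult against young, -0.44 in old against young and -0.47 in old against adult muscle.

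The members' median log2 fold change was 0.07 in adult against young muscle, where the median of all entries was -0.00. It was -0.44 in old against young and -0.47 in old against adult muscle, and the medians of all entries were -0.03 and -0.01. By level, the members' old against young median was -0.77 at a mean of 5 to 20, -0.45 at 20 to 50 and 0.07 at 50 or more. The medians of all entries at these levels were -0.18, -0.09 and 0.07, so the difference lay in members with a mean under 50. In old against adult muscle 55 of 69 members had a negative log2 fold change (79.7%), against 50.8% of all entries, although 1 was called. In old against young muscle the groups did not overlap for 21 members that were lower (30.4%) and 10 that were higher (14.5%), against 22.4% and 19.6% of all entries. Every old library lay below every adult library for 16 members (23.2%), while 10.3% of all entries were arranged in this way. Members with a mean of 5 to 20 had a median of -0.72 in this comparison and those with a mean of 50 or more a median of -0.16, and for all entries of these levels the medians were -0.10 and 0.04. The highest mean fell on young muscle for 32 members, on adult muscle for 29 and on old muscle for 8 (of all entries, 40.6%, 31.9% and 27.5%).

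The choice of scaling moved these counts. Brought to equal library totals, 4 members were called higher and 6 lower in adult against young muscle, and 2 higher and 20 lower in old against young muscle. These were 14.5% and 31.9% of the members, and 21.4% and 19.6% of all entries were called. This scaling shifted the median of all entries by itself, to -0.12 in adult against young, -0.30 in old against young and -0.17 in old against adult muscle. With equal totals after removal of the 20 most abundant entries, the calls were 6 higher and 6 lower in adult against young muscle and 2 higher and 19 lower in old against young muscle, with medians of all entries of -0.11 and -0.21 and with 22.1% and 19% of all entries called.

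Among the gelatinases, MMP9 fell in old against young muscle and MMP2 did not reach the fold limit. MMP2, which cuts denatured collagen and basement membrane collagen, had 763, 510 and 685 normalized counts in the young, 631, 626 and 656 in the adult and 283, 497 and 469 in the old fish. The old fish lay below all other fish. The log2 fold change was -0.67 ± 0.22 in old against young (limma adjusted p = 0.0433) and -0.66 ± 0.22 in old against adult muscle (adjusted p = 0.128). MMP9, a gelatinase that bone-resorbing cells and neutrophils are known to make, had 14, 13 and 27 in the young, 7, 6 and 1 in the adult and 3, 0 and 4 in the old fish. Old fish were near the level of 3 reads, and the log2 fold change against young muscle was -2.73 ± 0.73 (adjusted p = 0.0182), which without young replicate 3 was -2.42 (adjusted p = 0.0803). In adult against young muscle it was -1.91 ± 0.73 (adjusted p = 0.0657), and past the limits without old replicate 2 (adjusted p = 0.0268).

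The membrane-type MMPs act at the cell surface, and MMP14 is the known activator of the MMP2 precursor, a reaction in which TIMP2 takes part. MMP14A had 470, 343 and 434 in the young, 325, 374 and 391 in the adult and 188, 259 and 217 in the old fish. All old fish lay below all younger fish, with a log2 fold change of -0.91 ± 0.18 against young muscle (limma adjusted p = 0.00391), inside the fold limit, and of -0.72 ± 0.18 against adult muscle (adjusted p = 0.0564). The fold limit was passed with equal library totals, at -1.18, and without young replicate 2 or old replicate 2, at -1.04 and -1.02. MMP14B had 640, 550 and 672 in the young, 712, 582 and 801 in the adult and 435, 531 and 459 in the old fish. Its old fish were again the lowest, at -0.39 ± 0.16 against young (adjusted p = 0.0999) and -0.55 ± 0.16 against adult muscle (adjusted p = 0.0942), and it was not called. MMP15, a further transmembrane type (entry 735742), had 595, 588 and 599 in the young, 590, 564 and 712 in the adult and 870, 769 and 568 in the old fish, with overlapping groups. In its less abundant entry, 46028, the adult and old fish lay above all young fish. That entry was at 0.38 ± 0.21 in adult (limma adjusted p = 0.192) and 0.39 ± 0.21 in old against young muscle (adjusted p = 0.184), and was not called.

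MMP17, which is held in the membrane by a lipid anchor, fell in old muscle in its 1 tested entry (900998). It had 41, 33 and 44 in the young, 30, 18 and 29 in the adult and 17, 9 and 22 in the old fish, with a log2 fold change of -1.32 ± 0.35 in old against young muscle (limma adjusted p = 0.0166). The call was lost without young replicate 1 (-1.29, adjusted p = 0.0537), young replicate 3 (-1.24, adjusted p = 0.0648) or old replicate 2 (-0.98, inside the fold limit). None of the tested MMP16 entries was called. MMP23BB, a small MMP with a furin-cut membrane anchor, fell at both later ages. It had 51, 33 and 41 in the young, 15, 16 and 22 in the adult and 12, 13 and 13 in the old fish. The young fish were apart from all others, and MMP23BB was 2.28-fold lower in adult (log2 fold change -1.19 ± 0.28, adjusted p = 0.00778) and 3.08-fold lower in old (-1.62 ± 0.28, adjusted p = 0.00212) than in young muscle, on the log2(value + 1) scale.

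Of the 3 TIMPs, TIMP3 alone was called, higher in adult muscle. TIMP2, which inhibits MMPs and also takes part in MMP2 activation, had 414, 356 and 372 normalized counts in the young, 561, 686 and 451 in the adult and 419, 552 and 560 in the old fish. Both later ages lay above the young fish, with log2 fold changes of 0.55 ± 0.18 in adult (limma adjusted p = 0.0380) and 0.41 ± 0.18 in old against young muscle (adjusted p = 0.117), both inside the fold limit. TIMP3, which stays bound to the matrix and also inhibits ADAM17 and aggrecan-cutting ADAMTS enzymes, had 92, 66 and 61 in the young, 179, 273 and 121 in the adult and 84, 89 and 94 in the old fish. It rose in adult against young muscle (1.32 ± 0.27, adjusted p = 0.00391), whereas the old and young fish overlapped (0.30 ± 0.27, adjusted p = 0.438). The difference of old from adult muscle was -1.02 ± 0.27 (adjusted p = 0.0718) and was not called. TIMP4, a TIMP known from mammalian heart and muscle, was not called, with 10, 17 and 19 in the young, 10, 10 and 14 in the adult and 3, 9 and 9 in the old fish. Its old fish lay below all other fish, at -1.10 ± 0.45 against young (limma adjusted p = 0.0885) and -0.73 ± 0.45 against adult muscle (adjusted p = 0.383).

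**Figure D2:**
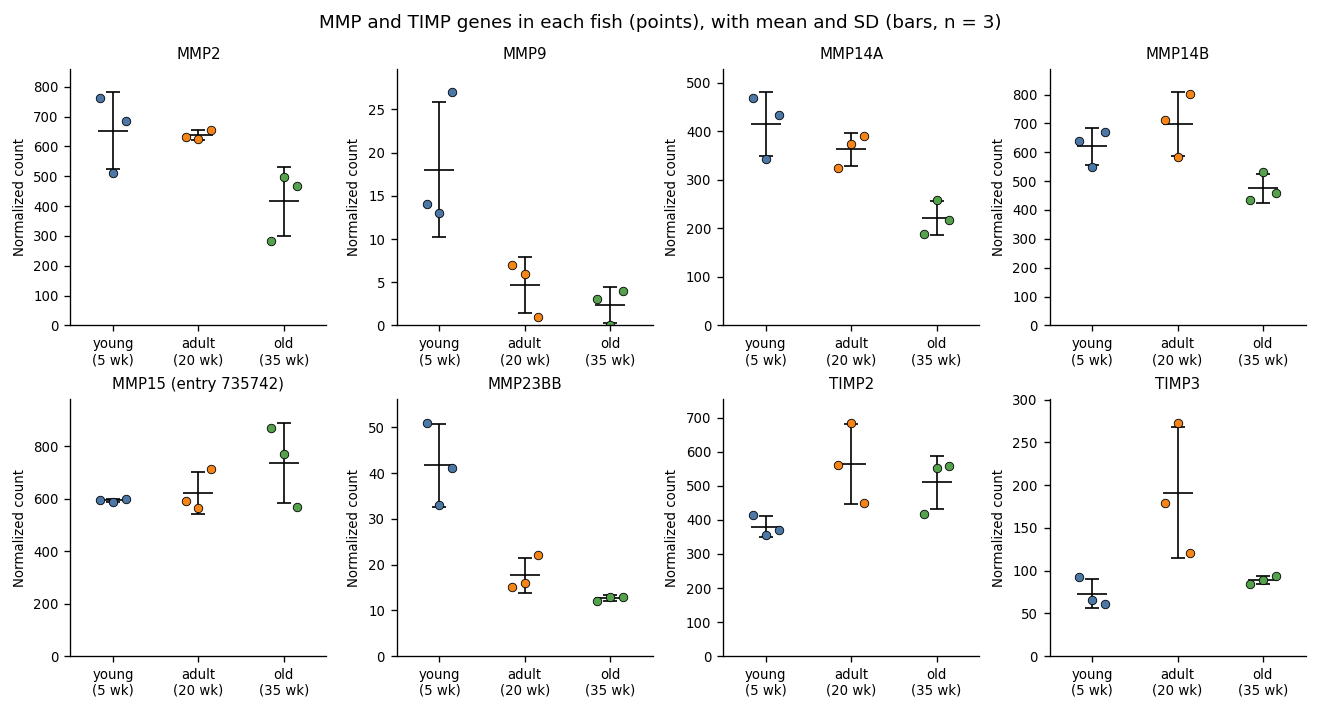
Normalized counts (y axis) of 8 MMP and TIMP entries in young, adult and old muscle (x axis), with 1 point per fish and bars for the mean and SD of 3 fish. MMP2 and MMP14A were lowest in the old fish, MMP23BB was highest in the young fish, and TIMP3 peaked in adult fish at 121 to 273.

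A ratio of 2 genes within a library does not depend on the size factor, and 4 ratios of an MMP to a TIMP, chosen after the single values had been seen, were therefore computed. MMP2 over TIMP2 was 1.84, 1.43 and 1.84 in the young, 1.13, 0.913 and 1.46 in the adult and 0.675, 0.900 and 0.838 in the old fish. The ages did not overlap between old and young or old and adult fish, and the log2 ratio was -1.08 in old against young and -0.52 in old against adult muscle. MMP14A over TIMP2 was 1.14, 0.964 and 1.17 in the young, 0.579, 0.545 and 0.867 in the adult and 0.449, 0.469 and 0.388 in the old fish, with every age apart from the others. Its log2 ratio was -1.32 in old against young, -0.74 in adult against young and -0.58 in old against adult muscle. MMP14B over TIMP2 was 1.55, 1.55 and 1.81 in the young, 1.27, 0.848 and 1.78 in the adult and 1.04, 0.962 and 0.820 in the old fish. The old fish lay below the young fish, at a log2 difference of -0.80, and overlapped the adult fish (-0.41, exact permutation p = 0.3). MMP2 over TIMP3 was 8.29, 7.73 and 11.2 in the young, 3.52, 2.29 and 5.42 in the adult and 3.37, 5.58 and 4.99 in the old fish. In this ratio the old fish lay below the young fish (-0.98), and its log2 difference in old against adult fish was positive, at 0.37, with overlapping groups (exact permutation p = 0.6). Each of these old against young differences had a 2-sided exact permutation p of 0.1, the smallest that 3 against 3 fish can give, so none can pass 0.05.

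**Figure D3:**
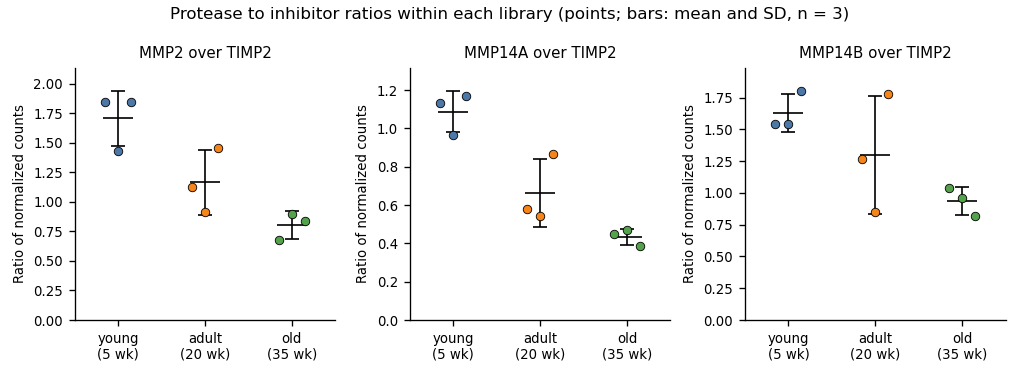
Ratios of normalized counts within each library (y axis) for MMP2, MMP14A and MMP14B over TIMP2 in young, adult and old muscle (x axis), with points for fish and bars for mean and SD. For MMP14A over TIMP2 the old fish lie between 0.388 and 0.469, below all adult and young fish.

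All 5 ADAMTS-like entries were called in adult against young muscle, 4 higher and 1 lower, where 10.7% of all entries were called higher and 11.4% lower. ADAMTSL5, a secreted microfibril-binding protein, had 34, 43 and 51 normalized counts in the young, 253, 278 and 262 in the adult and 263, 152 and 305 in the old fish. It rose 6.15-fold in adult (log2 fold change 2.62 ± 0.25, limma adjusted p = 6.92e-05) and 5.36-fold in old against young muscle (2.42 ± 0.25, adjusted p = 0.000158). The young fish were far below all others, and it was the 1 member that also passed a test against a log2 fold change of 1 itself, in both comparisons. ADAMTSL1 had 92, 92 and 99 in the young, 178, 254 and 292 in the adult and 202, 172 and 143 in the old fish. It rose in adult muscle (1.32 ± 0.21, adjusted p = 0.000878), and its old level, also above all young fish, was inside the fold limit (0.85 ± 0.21, adjusted p = 0.0123).

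ADAMTSL4, known in mammals for its place in the fibrillin fibres that hold the eye lens, is listed in 2 entries, and both were called higher in adult against young muscle. Entry 679541 had 199, 221 and 199 in the young, 511, 422 and 330 in the adult and 390, 492 and 386 in the old fish. Its log2 fold changes of 1.00 ± 0.18 in adult (limma adjusted p = 0.00187) and 1.02 ± 0.18 in old against young muscle (adjusted p = 0.00248) stood at the fold limit. Without young replicate 1 or 3, adult replicate 1 or 2 the adult value was 0.98, 0.98, 0.85 or 0.99, and without young replicate 1 or 3 or old replicate 2 the old value was 1.00, 1.00 (both under the limit before rounding) or 0.91. Entry 112059 had 83, 90 and 83 in the young, 190, 183 and 183 in the adult and 145, 200 and 157 in the old fish, which was 1.11 ± 0.17 in adult (adjusted p = 0.000691) and 0.95 ± 0.17 in old against young muscle (adjusted p = 0.00239, and 1.05 without old replicate 1). With equal library totals both entries were under the fold limit in adult against young muscle, at 0.89 and 1.00 (0.998 before rounding), and so was entry 679541 in old against young muscle, at 0.75. Equal totals without the 20 most abundant entries put entry 679541 at 0.90 in adult and 0.83 in old against young muscle, also under the limit.

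ADAMTSL2, which binds fibrillin and is known to restrain TGF-beta signalling, went the other way. It had 36, 40 and 29 in the young, 5, 10 and 11 in the adult and 8, 4 and 3 in the old fish. No adult or old fish reached the lowest young fish. ADAMTSL2 fell 3.86-fold in adult (log2 fold change -1.95 ± 0.42, limma adjusted p = 0.00475) and 6.32-fold in old against young muscle (-2.66 ± 0.42, adjusted p = 0.00127), and averaged 5.00 ± 2.65 in old and 35.0 ± 5.57 in young muscle (SD, n = 3 each).

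**Figure D4:**
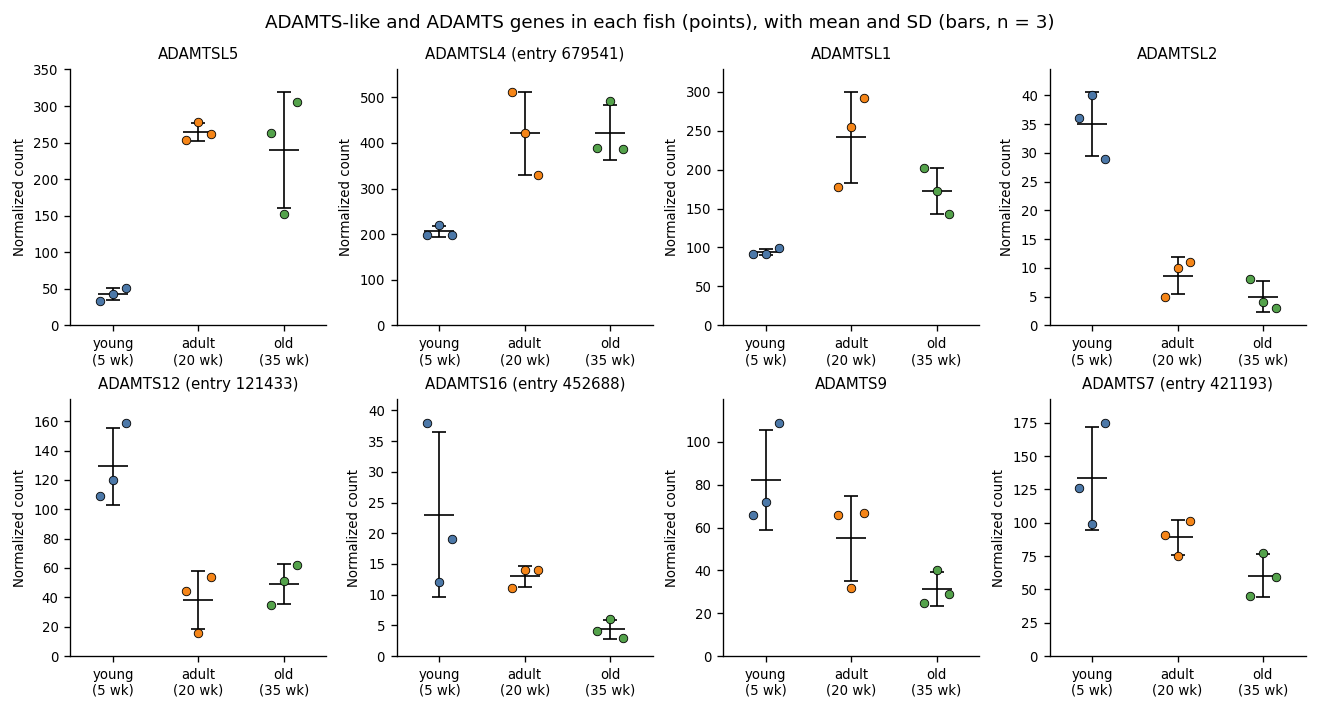
Normalized counts (y axis) of 4 ADAMTS-like and 4 ADAMTS entries in young, adult and old muscle (x axis), with 1 point per fish and bars for the mean and SD of 3 fish. ADAMTSL5, ADAMTSL4 and ADAMTSL1 were lowest in young fish, and the young fish were highest for ADAMTSL2, ADAMTS12, ADAMTS9 and ADAMTS7, without overlap with the old fish.

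Every call of an ADAMTS enzyme with a protease domain was lower, with the exception of ADAMTS6. Of the 12 tested entries of the group without a proteoglycan or procollagen assignment, 5 fell (41.7%) and 1 rose (8.33%) in old against young muscle. The shares of all entries were 9.84% lower and 7.91% higher. The 5 were 2 entries of ADAMTS12, 2 of ADAMTS7 and 1 of ADAMTS16. ADAMTS12, which is known in mammals to cut a cartilage matrix protein, had 109, 120 and 159 in the young, 44, 16 and 54 in the adult and 35, 51 and 62 in the old fish (entry 121433). All adult and old fish were below all young fish, with log2 fold changes of -1.89 ± 0.39 in adult (limma adjusted p = 0.00402) and -1.39 ± 0.39 in old against young muscle (adjusted p = 0.0230). The old call was lost without young replicate 2, young replicate 3 or old replicate 1 (adjusted p = 0.0598, 0.0891 and 0.0786). The second entry, 163002, had 22, 28 and 13 in the young, 9, 4 and 7 in the adult and 4, 9 and 1 in the old fish. It fell in old against young muscle (-2.18 ± 0.59, adjusted p = 0.0185), a call lost without young replicate 1 or 2 (adjusted p = 0.0584 and 0.0784). In adult against young muscle it was at -1.51 ± 0.59 (adjusted p = 0.0677), called without old replicate 2 or 3 (adjusted p = 0.0369 and 0.0257). Summed over both entries, which was tried after the data had been seen, ADAMTS12 was at -1.87 in adult (adjusted p = 0.00259) and -1.48 in old against young muscle (adjusted p = 0.0118).

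ADAMTS7, the relative of ADAMTS12 with the same known cartilage substrate, is listed in 4 entries, all with negative log2 fold changes in the 3 comparisons. Entry 421193 had 126, 99 and 175 in the young, 91, 75 and 101 in the adult and 45, 77 and 59 in the old fish. The old fish were below all young fish, at -1.12 ± 0.26 (limma adjusted p = 0.00893), and under the fold limit without young replicate 3 (-0.91) or old replicate 1 (-0.93). Entry 421184 had 14, 7 and 19 in the young, 14, 9 and 7 in the adult and 1, 1 and 9 in the old fish. It was called in old against young muscle (-1.97 ± 0.65, adjusted p = 0.0440) although the groups overlapped. Each library was left out in turn, and this call was lost in all such fits but that without old replicate 3, with an adjusted p of up to 0.152 (without young replicate 3). Summed over the entries, ADAMTS7 was at -1.10 in old against young muscle (adjusted p = 0.0107).

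ADAMTS16 and ADAMTS6 moved in opposite directions in old against young muscle. ADAMTS16, a secreted protease with a role in kidney and gonad known from rodents, had 38, 12 and 19 in the young, 11, 14 and 14 in the adult and 4, 6 and 3 in the old fish (entry 452688). Old fish were lower than all other fish, and the log2 fold change against young muscle was -2.06 ± 0.44 (limma adjusted p = 0.00636). ADAMTS6, which in mouse is needed for heart development, had 10, 4 and 9 in the young, 12, 16 and 20 in the adult and 24, 22 and 19 in the old fish (entry 954032). It was the 1 ADAMTS entry with a protease domain that rose, at 1.46 ± 0.38 in old against young muscle (adjusted p = 0.0154), a call lost without young replicate 2 (1.11, adjusted p = 0.0591). It was also lost when the 3 ADAMTS6 entries were summed (0.85, adjusted p = 0.171), and the other tested entry, 803983, was at 0.26 with overlapping groups.

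Of the 8 tested entries of proteoglycan-cutting ADAMTS enzymes, 2 fell (25%) and none rose in old against young muscle, where 9.84% of all entries fell and 7.91% rose. ADAMTS9, which cuts versican and aggrecan, had 66, 72 and 109 in the young, 66, 32 and 67 in the adult and 25, 40 and 29 in the old fish. The old fish lay below all young fish at -1.36 ± 0.32 (limma adjusted p = 0.0107), and without young replicate 3 the call was lost (-1.14, adjusted p = 0.0534). ADAMTS15, another versican-cutting enzyme, had 36, 29 and 39 in the young, 26, 11 and 25 in the adult and 25, 6 and 7 in the old fish in entry 157119 (-1.64 ± 0.49, adjusted p = 0.0300). This call was lost without any 1 of the young replicates, old replicate 2 or old replicate 3 (adjusted p = 0.0632 to 0.0950), and the other ADAMTS15 entry (12623) was not called, at 0.41. Summed over both entries, ADAMTS15 was not called in old against young muscle (0.03, adjusted p = 0.934). None of the 6 tested entries of procollagen N-propeptidases, which trim the amino end of fibrillar procollagens, was called by limma, and at an unadjusted p under 0.05 they numbered 1 in old against young and 1 in old against adult muscle, both lower. ADAMTS14 had 410, 356 and 381 in the young, 437, 200 and 269 in the adult and 251, 442 and 360 in the old fish. ADAMTS2 entry 483004 had 211, 213 and 250 in the young, 209, 170 and 252 in the adult and 160, 296 and 170 in the old fish. Both showed overlapping ages. The entry at an unadjusted p under 0.05 in old against young muscle was ADAMTS2 entry 828937 (-0.82 ± 0.30, limma adjusted p = 0.0615). Its young fish lay above all later fish. In old against adult muscle it was ADAMTS3 entry 209360 (-1.01 ± 0.32, adjusted p = 0.116), whose adult fish lay above all others.

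Marker genes of cartilage and bone and the type I collagen genes of the fibroblast list had lower sums at the later ages. The cartilage and bone list (12 of 15 entries tested, 2 entries at 0 in every library) summed to 4170 to 5881 in the young, 1373 to 2691 in the adult and 677 to 1366 in the old libraries, with 5 entries called lower in adult and 11 in old against young muscle. The fibroblast list (7 of 8 entries tested) summed to 91461 to 115720 in the young, 32009 to 67813 in the adult and 25891 to 67958 in the old libraries, with 2 and 3 entries called lower. These sums are nearly all type I collagen. PDGFRA, a receptor gene of the same list, had 538, 505 and 410 in the young, 695, 648 and 753 in the adult and 550, 692 and 621 in the old fish. Its later levels were above all young fish, by little in old replicate 1, and 0 entries of the list were called higher. The part of these cells in the lower levels of MMP9, MMP14A, MMP23BB, ADAMTSL2, ADAMTS12, ADAMTS9 and ADAMTS7 was not tested.

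Of the 14 tested entries of ADAM sheddases, 3 were called higher (21.4%) and 0 lower in adult against young muscle. Over all entries tested, 10.7% were called higher and 11.4% lower. The other 11 sheddase entries were not called. By sign, 10 of the 14 were positive and 4 negative, with ADAM17B (-0.99) and ADAM9 (-0.58) among the 4. MMP25 was also called higher in adult muscle, and neither it nor the 3 sheddases were called in old against young muscle. ADAM28, a membrane protease of lymphoid and myeloid cells, had 13, 11 and 12 in the young, 45, 74 and 47 in the adult and 21, 10 and 36 in the old fish. It rose 4.23-fold in adult against young muscle (log2 fold change 2.08 ± 0.40, limma adjusted p = 0.00264), while old and young fish overlapped (0.68 ± 0.40, adjusted p = 0.231). Old against adult muscle gave -1.40 ± 0.40 (adjusted p = 0.0868). Without old replicate 2 the old against young value was called (1.14, adjusted p = 0.0302), and without old replicate 3 the old against adult value (-1.82, adjusted p = 0.0437). ADAM8A, a fish form of a leukocyte ADAM, had 22, 15 and 14 in the young, 39, 45 and 24 in the adult and 17, 24 and 23 in the old fish, at 1.02 ± 0.32 in adult against young (adjusted p = 0.0280). Its call was lost without young replicate 2 (0.95), young replicate 3 (0.90), adult replicate 1 (0.94) or adult replicate 2 (0.84), and with equal library totals (0.91). The 2 entries of ADAM8B were not called in adult against young muscle. Entry 49090 was at 0.34 (limma adjusted p = 0.506) and entry 60530 at 0.70 (adjusted p = 0.143). Their sum was not called either (0.62, adjusted p = 0.143).

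ADAM15, an ADAM of endothelium and other adhesive cells, had 53, 53 and 39 in the young, 102, 131 and 75 in the adult and 79, 63 and 92 in the old fish. It rose in adult against young muscle (1.05 ± 0.25, limma adjusted p = 0.00811), and was inside the fold limit without young replicate 3 (0.90) or adult replicate 2 (0.86) and with equal library totals (0.94). MMP25, a lipid-anchored MMP known from human neutrophils, had 5, 18 and 11 in the young, 30, 31 and 23 in the adult and 12, 9 and 16 in the old fish. Adult fish were above all others, with 1.37 ± 0.42 against young muscle (adjusted p = 0.0273). This call was lost without young replicate 1 (0.93, adjusted p = 0.0976), young replicate 3 (adjusted p = 0.0609), adult replicate 1 (adjusted p = 0.0749) or adult replicate 2 (adjusted p = 0.0831), and with equal library totals (adjusted p = 0.0573).

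Neutrophil and macrophage markers, too, were highest in adult muscle by the median of their sums. Neutrophil markers (4 of 6 symbols found, 4 entries tested, none at 0) summed to 82 to 114 in the young, 369 to 609 in the adult and 143 to 301 in the old libraries, with 3 entries called higher in adult and 2 in old against young muscle. Macrophage markers (3 of 5 symbols found, 4 entries tested) summed to 80 to 121 in the young, 144 to 334 in the adult and 167 to 196 in the old libraries, with 2 and 1 entries called higher. Lymphocyte markers summed to no more than 14 in any library, with medians of 13 in the young, 8 in the adult and 9 in the old fish. Endothelial markers summed to 443 to 559 in the young, 635 to 817 in the adult and 536 to 739 in the old libraries. MMP9, which neutrophils are also known to make, went the other way from the neutrophil sum, with 14, 13 and 27 in the young and 7, 6 and 1 in the adult fish. The part of leukocytes and endothelium in the levels of ADAM28, ADAM8A, ADAM15, MMP25 and MMP9 was not tested.

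**Figure D5:**
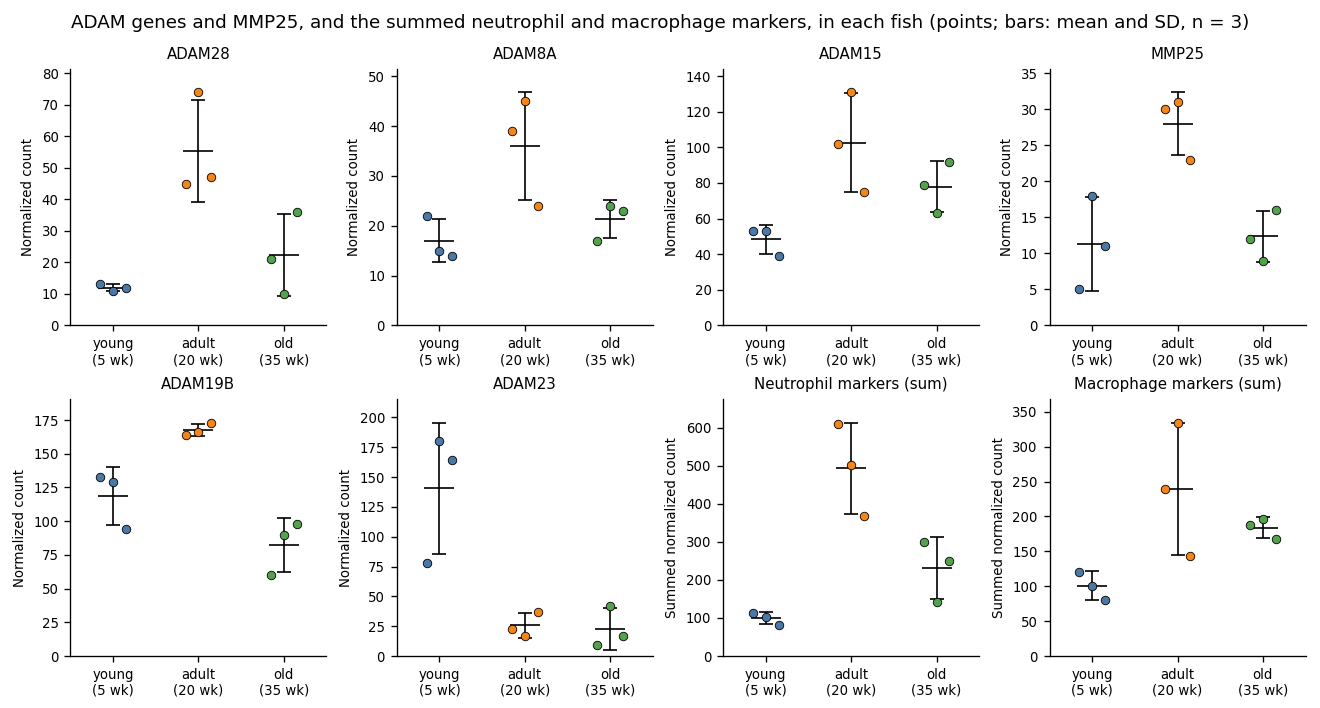
Normalized counts (y axis) of ADAM28, ADAM8A, ADAM15, MMP25, ADAM19B and ADAM23 and summed normalized counts of neutrophil and macrophage markers in young, adult and old muscle (x axis), with points for fish and bars for mean and SD. ADAM28, MMP25 and the neutrophil sum were highest in adult fish, and ADAM23 was highest in young fish, at 78 to 180.

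ADAM19B, a sheddase of neuregulins known from the developing heart and from muscle and nerve, was the 1 member called in old against adult muscle. It had 133, 129 and 94 in the young, 164, 166 and 173 in the adult and 60, 90 and 98 in the old fish. Old fish were below all adult fish, at -1.04 ± 0.22 (limma adjusted p = 0.0313). This call was lost without young replicate 2 (adjusted p = 0.0526), adult replicate 1 (0.0504), adult replicate 2 (0.113), adult replicate 3 (0.110) or old replicate 1 (-0.83, adjusted p = 0.0559), and in a fit of the adult and old libraries alone (adjusted p = 0.1). ADAM10, the main sheddase of Notch receptors, was not called: its entry 257302 had 230, 201 and 196 in the young, 230, 256 and 258 in the adult and 303, 251 and 220 in the old fish. Its other entry, 223424, was at 0.33 in adult and 0.31 in old against young muscle, with all adult fish above all young fish.

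The non-catalytic ADAMs are cell surface proteins of the nervous system without a working active site. ADAM23, a receptor for the synaptic LGI proteins, fell at both later ages. It had 78, 180 and 164 in the young, 23, 17 and 37 in the adult and 9, 42 and 17 in the old fish. Even the lowest young fish was above all later fish, and ADAM23 was 5.24-fold lower in adult (log2 fold change -2.39 ± 0.50, limma adjusted p = 0.00423) and 6.73-fold lower in old (-2.75 ± 0.50, adjusted p = 0.00277) than in young muscle. The 5 other tested entries of this group, of ADAM11 and ADAM22, were not called. In old against adult muscle all 6 entries were negative. ADAM22 entry 115403 was at -2.57 ± 0.65 (limma adjusted p = 0.0598) and ADAM11 entry 86779 at -1.70 ± 0.51 (adjusted p = 0.0953). In both, old fish lay below all adult fish. Their adult against young values were positive, at 1.075 and 0.66, with overlapping groups.

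The nerve and Schwann cell list (9 of 10 entries tested) summed to 2886 to 5528 in the young, 3103 to 3823 in the adult and 3498 to 4309 in the old libraries, and 4 of its entries were called lower at each later age. Among them, the neurofilament gene NEFLA had 35, 119 and 96 in the young, 1, 1 and 1 in the adult and 1, 3 and 1 in the old fish. NEFLB had 64, 195 and 160 in the young, 2, 16 and 3 in the adult and 0, 6 and 1 in the old fish. Both neurofilament genes and ADAM23 were lowest in young replicate 1 among the young fish. The part of nerve in the level of ADAM23 was not tested.

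The family is spread over 46 names when paralogue letters are dropped, so that MMP14A and MMP14B share 1 name. Of these names, 22 had more than 1 entry, with 62 entries in all. Reads of near-identical copies could have been divided between such entries or left out. The names were compared with the symbols in RefSeq, which lists 35 of the 46, and it gives 1 symbol each for ADAM12 with 4 entries here and MMP16 with 5. For MMP14, MMP15 and MMP23, with 2 entries each here, it gives 2 symbols each, so several entries of a name need not be copies of 1 gene. Entries were also summed by full name, with paralogue letters kept, which gave 51 names, a different set from the 46 above. Of these, 46 were tested, and 12, 13 and 1 were called in adult against young, old against young and old against adult muscle. These were 26.1%, 28.3% and 2.17% of the tested names, where 22.3%, 18% and 2.02% of all summed names were called. ADAM22, of which no entry was called alone, was then at -1.75 in old against young muscle (limma adjusted p = 0.0315), and ADAMTS18, likewise not called alone, at -2.01 (adjusted p = 0.0464). The 17 untested members had no value above 11, and 3 of them (both MMP13B entries and ADAMTS15A) were at 0 in every library. All 3 collagenase entries and the 1 stromelysin entry, MMP11, were among the 17.

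Genes that work with the family were counted in lists of fixed names. Among all entries tested, 10.7% were called higher and 11.4% lower in adult against young muscle. These shares were 7.91% and 9.84% in old against young and 0.825% and 1.26% in old against adult muscle. Of 26 tested entries that activate, inhibit or take up MMPs, 8 rose and 0 fell in adult against young muscle, 4 rose and 4 fell in old against young muscle, and 0 rose and 3 fell in old against adult muscle. At an unadjusted limma p under 0.05, 1 was lower in adult against young and 2 were higher in old against adult muscle. The list's medians were 0.23, -0.05 and -0.52. SPOCK3, a secreted proteoglycan reported to inhibit the activation of MMP2, had 105, 119 and 107 in the young, 761, 549 and 405 in the adult and 1393, 605 and 817 in the old fish in entry 896111 (2.32 ± 0.29 in adult and 2.99 ± 0.29 in old against young, limma adjusted p = 0.000221 and 0.000117). CTSLA, a lysosomal cysteine protease, had 130, 157 and 169 in the young, 457, 643 and 446 in the adult and 503, 240 and 347 in the old fish (1.74 ± 0.25 and 1.20 ± 0.25, adjusted p = 0.000541 and 0.00595). PLAUR, the urokinase receptor that focuses plasmin activation at the cell surface, had 8, 14 and 5 in young, 29, 30 and 19 in adult and 0 in all 3 old libraries. It was called higher in adult against young muscle and lower in both comparisons of old muscle. SPOCK1, of the same family as SPOCK3, had 5, 18 and 12 in the young, 4, 6 and 7 in the adult and 1 in each old library. It was called lower in old against young muscle (-2.51 ± 0.55, limma adjusted p = 0.00693), with old values under the level of 3 reads. HTRA1A (entry 949818) and THBS1 (entry 92292) were also called lower in this comparison.

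Substrates and partners of the proteases were counted in the same way. The background over all entries tested was 10.7% called higher and 11.4% lower in adult against young muscle. It was 7.91% higher and 9.84% lower in old against young muscle. Of 29 tested entries of proteins shed by ADAMs, 5 rose and 0 fell in adult and 5 rose and 0 fell in old against young muscle, with medians of 0.31 and 0.28, and at an unadjusted limma p under 0.05 the lower entries numbered 3 and 2. The Notch ligand DLL4, in entry 952089, had 27, 23 and 22 in the young, 50, 67 and 57 in the adult and 82, 66 and 77 in the old fish (1.23 ± 0.21 and 1.60 ± 0.21, limma adjusted p = 0.00136 and 0.000568), and its second entry, 58651, was not called (0.31 and 0.46). JAG1, another Notch ligand, in entry 644992 had 65, 59 and 67 in the young, 164, 82 and 100 in the adult and 206, 223 and 178 in the old fish (1.65 ± 0.24 in old against young, adjusted p = 0.000882), while its entries 827954, 803597 and 104093 were not called (0.19, 0.49 and 0.67). Among 5 tested entries of ADAM10 and ADAM17 partners 1 rose in adult and none was called in old against young muscle (2 were higher at an unadjusted p under 0.05).

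Of 26 tested entries of matrix proteins cut by the family, 2 rose and 6 fell in adult and 2 rose and 8 fell in old against young muscle, with medians of -0.78 and -0.49. Both that rose were of VCANA, a versican, whose entry 797542 had 129, 130 and 118 in the young, 263, 322 and 486 in the adult and 197, 223 and 419 in the old fish (1.45 ± 0.29 and 1.07 ± 0.29, limma adjusted p = 0.00290 and 0.0182). The versican entry VCAN was not called. FN1, fibronectin, in entry 402914 had 1631, 1554 and 1451 in the young, 684, 637 and 969 in the adult and 528, 916 and 582 in the old fish (-1.04 ± 0.22 and -1.23 ± 0.22, adjusted p = 0.00434 and 0.00245). Its more abundant entry, 702064, was not called, with 2701, 3622 and 2606 in the young, 3238, 6589 and 3234 in the adult and 2706, 2213 and 3615 in the old fish (0.48 and -0.08). Of 22 tested entries of other procollagen-processing genes, 0 rose and 4 fell in adult and 1 rose and 12 fell in old against young muscle, and 2 were higher in adult muscle at an unadjusted limma p under 0.05. For this list and the matrix list the background was 10.7% of all entries higher and 11.4% lower in adult against young muscle. It was 7.91% and 9.84% in old against young muscle. SERPINH1, the collagen chaperone, had 665, 590 and 454 in the young, 56, 54 and 90 in the adult and 146, 258 and 257 in the old fish, and was called lower at both later ages (-3.10 ± 0.27 and -1.40 ± 0.27, adjusted p = 4.11e-05 and 0.00369) and higher in old against adult muscle (1.70 ± 0.27, adjusted p = 0.0107). P4HA1, a collagen prolyl hydroxylase subunit, was the 1 that rose in old against young muscle, with 122, 108 and 99 in the young, 291, 151 and 214 in the adult and 471, 467 and 306 in the old fish (1.89 ± 0.25, adjusted p = 0.000534). The genes named in these lists were chosen after their values were seen, and their values without single libraries were not computed.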

How the data were processed

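Total RNA from skeletal muscle of 3 fish per age (9 libraries) was made into stranded libraries by the authors, who trimmed the paired reads (Trimmomatic 0.33), aligned them to the killifish genome NotFur1 (STAR 2.4.2a) and counted them per gene over exons (featureCounts 1.4.5-p1). The deposited values are a signal: read counts that the authors divided by a size factor of each library and rounded. Because they are normalized, no test for raw counts was run. Values were set to log2(value + 1), entries with a mean under 5 were left out, and limma 3.58.1 in R 4.3.3 was fitted over all 9 libraries with 1 mean per age, eBayes with a trend, and Benjamini-Hochberg adjustment in each comparison over 17454 entries.

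Values in each library are given for every member called in a comparison, for the 10 members with the highest mean, and for the highest tested member of any role group without one of these (collagenases and stromelysins had no tested member). Those of TIMP4, ADAM9 and ADAM17B are given outside this rule. The members and gene lists were chosen with earlier results of these data known. P-values measure the spread between fish. Size factors of 0.6925 to 1.25 were estimated from the spacing of values, which gives the read numbers in the text and shows a precision that low values limit to a few reads. Alternatives were other scalings, filters, added constants and fold rules, a fit of 2 ages, a replicate block, summed names and leaving out single libraries. Gene names were compared with RefSeq (NfurGRZ-RIMD1, a different assembly), so no coordinates are given. No column was left out (0 unused).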

Additional observations from a re-analysis of the deposited data

How the results depend on the processing

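The 29 called results of members were recomputed under each alternative, and 0 reversed. In the fits without 1 library, 14 of the 29 were kept throughout, and 12 were lost without young replicate 3. The number of members called ranged over these fits between 9 and 15 in adult against young, 7 and 17 in old against young, and 0 and 2 in old against adult muscle. The members' shares were 13 to 21.7%, 10.1 to 24.6% and 0 to 2.9%. Those of all entries were 17.3 to 23.1%, 12.9 to 18.7% and 0.516 to 3.08%. When each difference was tested by limma's treat against a log2 fold change of 1, 1, 1 and 0 members were called in the 3 comparisons, where the count of 1 was ADAMTSL5 in each case and 1 member had an unadjusted p under 0.05 in old against adult muscle. These were 1.45%, 1.45% and 0% of the members. The stricter test also called few of all entries, 3.11%, 1.78% and 0.0745%. With only entries of a mean of at least 50, 33 members were tested and 8 and 6 were called in adult against young and old against young muscle. These were 24.2% and 18.2% of the members, near the 22.9% and 17.7% of all entries called. A fit of only the 2 ages of a contrast called 0 members in old against adult muscle by limma, with 15 at an unadjusted p under 0.05. That fit called 0.43% of all entries. An added constant of 0.5 or 5 moved MMP9 in old against young muscle to -3.14 or -1.64. Replicate numbers did not pair the fish: over 9 pairs of the same number, deviations from the age means correlated at -0.0786 to 0.106, 1 of them above 0.1. With the replicate number as a block, 13, 17 and 1 members were called, and ADAM19B in old against adult muscle was lost (adjusted p = 0.0620). These were 18.8%, 24.6% and 1.45% of the members, where 21.3%, 17% and 1.46% of all entries were called. With 3 fish per age and values near 3 reads for MMP9, ADAMTSL2 and ADAMTS16 in old muscle, small changes of low members are not resolved.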

Other observations

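ADAM9, a widely expressed sheddase, was chosen here after its values were seen because its order of ages differs from that of ADAM28 and ADAM15. It had 184, 189 and 174 normalized counts in the young, 119, 108 and 139 in the adult and 195, 199 and 163 in the old fish, so that adult fish were below all others. The log2 fold change was -0.58 in adult against young muscle (limma adjusted p = 0.0188), inside the fold limit, 0.02 in old against young and 0.60 in old against adult muscle (adjusted p = 0.0746). ADAM17B, a fish form of the sheddase that releases tumour necrosis factor, had 138, 113 and 185 in the young, 60, 55 and 109 in the adult and 88, 86 and 77 in the old fish, also chosen after its values were seen. It was at -0.99 in adult against young muscle (adjusted p = 0.0158), just under the fold limit.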
